A study of Mus musculus with 6 samples.

Results

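The 9 genes described here start blood clotting, hold it in check or steer the dissolving of clots: F3, Tfpi, Thbd, Procr, F2r, Plau, Plat, Plaur and Serpinb2. They were taken as a named list, each through the array row that the platform annotation pairs with that gene alone, and all 9 were measured among 19938 genes. RNA came from whole tumors of Renca, a mouse renal carcinoma line, in BALB/c mice. The 3 intrakidney tumors had been started by injecting cells into the outer part of the kidney, and the 3 subcutaneous tumors by injecting the same cells under the skin. All 6 tumors came from separate mice and were excised 12 days after injection. Neither group is described as carrying any other treatment or altered gene, and 1 cell line stands for the tumor in both. Each tumor is a mixture of Renca cells and host cells, so that for every gene a change in the number of cells of a type and a change in RNA per cell cannot be told apart.

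Clotting through tissue factor starts when this protein, the product of F3, meets factor VII of the plasma. The cascade that follows makes thrombin and then fibrin. Endothelium limits this through tissue factor pathway inhibitor, thrombomodulin and the endothelial protein C receptor. Fibrin and matrix are removed by plasmin, which is cut from plasminogen by tissue-type and urokinase-type plasminogen activators. Urokinase works at the cell surface when bound to its receptor, and serine protease inhibitors of the serpin family restrain it. In tumors the urokinase system is best known from invading cells, macrophages and stroma.

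Promoter windows of the members are shown first, since they are the stretches of genome next to the starts of the genes whose RNA is described. The mouse RefSeq promoter table (build GRCm38.p6) held 6 of the 9 members, and Thbd, Plat and Plau had no entry. Each window is the 250 bases before the listed start, written 5′ to 3′ on the gene's own strand, and for Serpinb2 the more upstream of 2 listed starts was used. Capitals mark TGACTCA or its reverse complement TGAGTCA (the AP-1 motif), GGGCGG or its reverse complement CCGCCC (the Sp1 motif) and TATAAA or its reverse complement TTTATA (the TATA box). The windows of Plaur (chr7:24462233-24462482, + strand), Serpinb2 (chr1:107511173-107511422, + strand) and Procr (chr2:155750967-155751216, + strand) belong to 3 of the members whose intrakidney tumors all lay above the subcutaneous tumors. That of F2r (chr13:95618467-95618716, - strand) belongs to the member whose intrakidney tumors all lay below, and that of F3 (chr3:121723287-121723536, + strand) to the initiator of clotting.
Plaur: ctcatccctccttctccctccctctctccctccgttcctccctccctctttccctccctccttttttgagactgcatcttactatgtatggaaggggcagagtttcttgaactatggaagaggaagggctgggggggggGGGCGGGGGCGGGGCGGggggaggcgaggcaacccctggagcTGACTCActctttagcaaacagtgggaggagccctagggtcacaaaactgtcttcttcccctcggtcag
Serpinb2: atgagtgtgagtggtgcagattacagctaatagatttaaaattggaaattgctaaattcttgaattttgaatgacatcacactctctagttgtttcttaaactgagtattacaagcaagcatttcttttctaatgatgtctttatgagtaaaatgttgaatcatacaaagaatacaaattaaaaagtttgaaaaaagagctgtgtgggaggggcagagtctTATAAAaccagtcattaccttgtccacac
Procr: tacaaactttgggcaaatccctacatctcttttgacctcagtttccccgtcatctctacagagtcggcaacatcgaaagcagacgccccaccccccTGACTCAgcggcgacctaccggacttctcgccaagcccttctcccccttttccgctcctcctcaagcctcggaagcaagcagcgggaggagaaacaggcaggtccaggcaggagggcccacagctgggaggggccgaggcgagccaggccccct
F2r: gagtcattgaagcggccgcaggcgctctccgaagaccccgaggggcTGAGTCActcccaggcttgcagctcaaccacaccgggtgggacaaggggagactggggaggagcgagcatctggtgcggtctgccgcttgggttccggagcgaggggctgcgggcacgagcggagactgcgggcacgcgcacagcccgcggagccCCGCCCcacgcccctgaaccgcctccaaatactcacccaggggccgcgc
F3: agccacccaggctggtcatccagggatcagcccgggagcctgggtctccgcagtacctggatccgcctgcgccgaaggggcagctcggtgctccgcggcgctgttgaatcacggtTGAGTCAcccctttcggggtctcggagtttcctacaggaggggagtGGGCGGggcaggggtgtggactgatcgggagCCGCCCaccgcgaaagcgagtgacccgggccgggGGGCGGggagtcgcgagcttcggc

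The AP-1 motif was found in 4 of the 6 windows, those of Plaur, Procr, F2r and F3, and in 4.5% of all 32851 windows of this length in the table. In Plaur it lay 69 to 63 bases before the start, and there 3 Sp1 matches stood between 111 and 95 bases before the start, of which 2 overlapped each other. The Sp1 motif was found in 4 of the 6 windows (Plaur, F2r, F3 and Tfpi) and in 32.7% of all windows. The Serpinb2 window held neither, and had a TATA box 29 to 24 bases before the start. The TATA box was found in 2 of the 6 windows and in 12.4% of all windows. The other was that of Tfpi, on the opposite strand, 127 to 122 bases before the start. The 4 genes with the AP-1 motif included both directions of difference and a gene whose groups overlapped. A match to these letters is a description of the sequence and was not tested as a binding site.

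The arrays gave log2 values (RMA, a background-corrected and normalized summary of a gene's probes), and a difference of 1 on this scale is a doubling. Across all 19938 genes, limma's moderated test with Benjamini-Hochberg adjustment called 46 at a threshold of 0.05 (0.231%). In intrakidney tumors 26 of these genes rose (0.13%) and 20 fell (0.1%). This count was 21 without intrakidney tumor 1 and 2, 3 and 4 without subcutaneous tumors 1, 2 and 3. Transcripts of liver stood out in intrakidney tumor 3. Averaged over 5 hepatocyte genes, intrakidney tumors 1, 2 and 3 measured 5.85, 6.49 and 9.75, against 5.85 to 6.02 in the subcutaneous group. Alb, the albumin gene, measured 5.88, 7.20 and 11.83 in the same 3 tumors, against 5.50 to 5.60 in the subcutaneous group. Averaged over 12 genes of proximal tubule, they measured 6.58, 6.93 and 7.55, against 6.51 to 6.69 in the subcutaneous group. Of these 12 genes 11 lay higher and 1 lower in intrakidney tumors (Aqp1, a log2 difference of -1.04). Cyp2e1, with the largest difference of the list, measured 8.36, 7.41 and 10.02 in intrakidney tumors 1, 2 and 3. In the same tumors Slc27a2 measured 5.53, 6.72 and 8.68, and Slc34a1 6.14, 7.41 and 7.77. Intrakidney tumor 3 thus did not stand equally far above tumor 2 in all genes of this list. Of 6 genes of renal epithelium, a list added after the values were seen, Krt8, a keratin of simple epithelia, measured 13.16 to 13.22 in intrakidney and 13.18 to 13.35 in subcutaneous tumors, and Pax8, a transcription factor of the kidney lineage, 10.08 to 10.18 and 10.04 to 10.15. Pax2, another such factor, measured 7.68 to 7.94 in intrakidney and 7.66 to 7.79 in subcutaneous tumors, and Epcam, an epithelial adhesion gene, 6.31 to 6.86 and 6.8 to 7.0, below the array medians of 7.08 to 7.11.

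With limma 0 of the 9 members passed the adjusted threshold. At an unadjusted p of 0.05 in the same limma fit, 5 of the 9 members passed, all of them higher in intrakidney tumors (Plaur, Serpinb2, Plau, Thbd and Procr), where 4.72% of all genes passed in that direction, 3.71% in the other and 8.43% in either. In these 5 members every intrakidney tumor lay above every subcutaneous tumor, which was so for 8.41% of all genes, and in F2r every intrakidney tumor lay below, as in 6.53% of all genes (14.9% for both directions together). F3, Plat and Tfpi had groups that overlapped. The median log2 difference (intrakidney minus subcutaneous) was 0.24 over the 9 members and -0.0058 over all genes. For each of the 6 members without overlap the exact two-sided permutation p was 0.1, the smallest that 3 tumors against 3 allow.

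**Figure D1:**
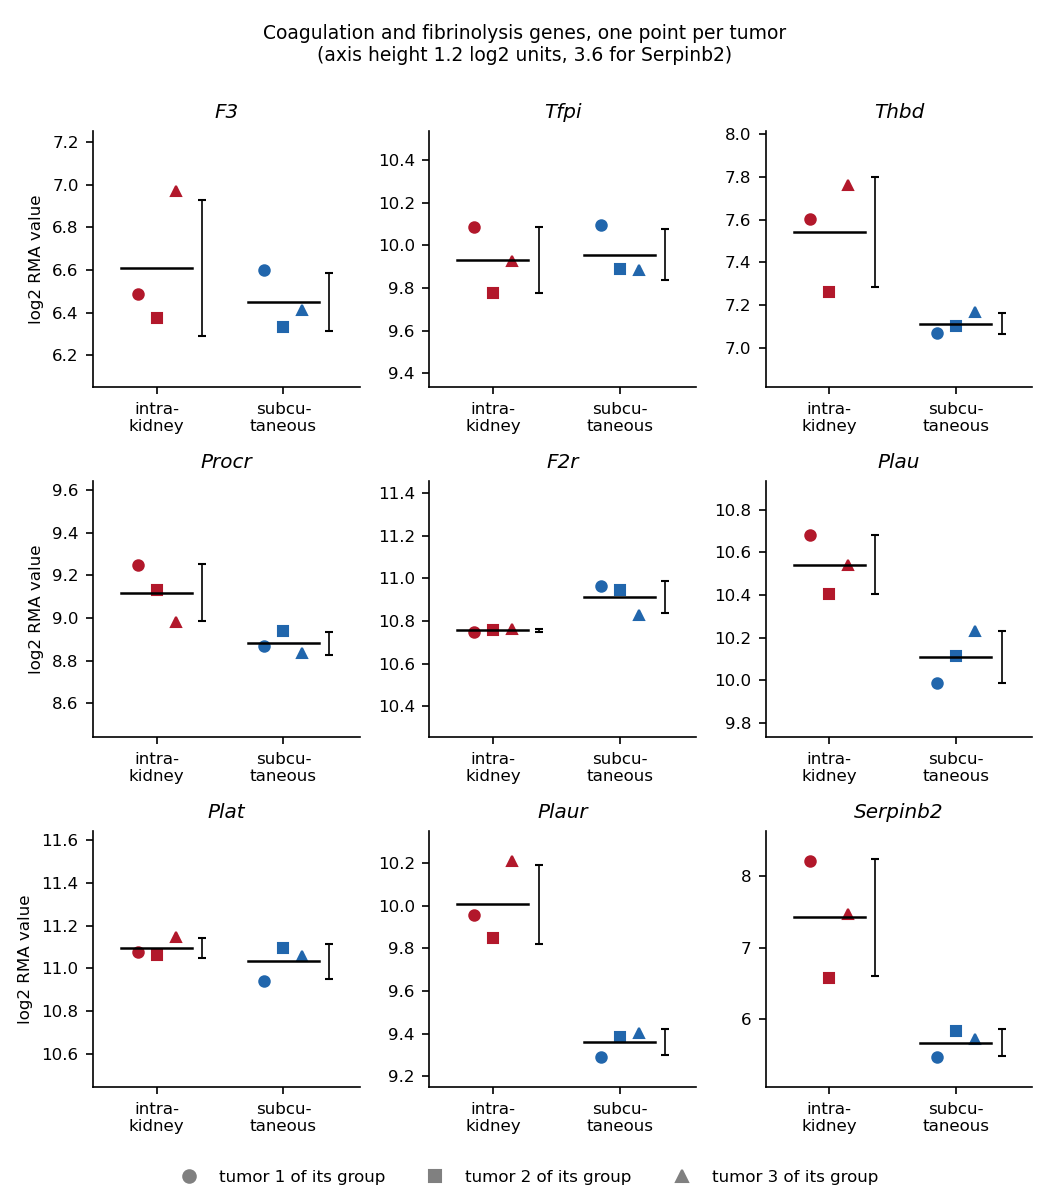
Log2 RMA value of each of the 9 genes (vertical axis) in each intrakidney tumor (red) and each subcutaneous tumor (blue), with symbols for tumors 1, 2 and 3 of a group, black lines for group means and bars for the SD of 3 tumors. Plaur and Serpinb2 have the widest gaps between the groups, while the points of F3, Tfpi and Plat overlap.

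The surface part of the urokinase system held the lowest p of the list. Plaur, which encodes the urokinase receptor, measured 9.96, 9.85 and 10.21 in intrakidney tumors 1, 2 and 3, against 9.29, 9.39 and 9.40 in subcutaneous tumors 1, 2 and 3. The lowest intrakidney tumor lay 0.45 above the highest subcutaneous tumor, a gap wider than the whole range within either group (0.36 and 0.11). The log2 difference was 0.65 ± 0.10 (SE), or 1.56-fold, and the adjusted p over all genes was 0.0840 with limma. It stood at rank 74 of 19938 by p. Its difference stayed between 0.54 and 0.72 when any 1 tumor was left out, while the adjusted p was 0.0801 to 0.397. The adjusted p was 0.0325 without dim genes, 0.0123 with a robust prior that follows intensity and 0.00878 with array weights, each of which puts Plaur past the threshold. The array weights were 0.351, 0.679 and 2.571 for intrakidney tumors 1, 2 and 3. They were 0.756, 3.549 and 0.609 for subcutaneous tumors 1, 2 and 3. Results with array weights therefore lean on intrakidney tumor 3, where liver transcripts stood out, and on subcutaneous tumor 2.

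Plau encodes urokinase itself. It measured 10.68, 10.41 and 10.54 in intrakidney tumors 1, 2 and 3, against 9.99, 10.11 and 10.23 in the subcutaneous tumors. The groups stood 0.18 apart at their nearest points, less than the range within either group. Intrakidney tumors exceeded subcutaneous tumors by 0.43 ± 0.10 (SE) on the log2 scale, or 1.35-fold, with an adjusted p of 0.228 with limma and of 0.0258 with array weights. With any 1 tumor left out the difference was 0.36 to 0.50.

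Plat encodes tissue-type plasminogen activator, the activator known above all from the dissolving of clots inside vessels. It measured 11.07, 11.06 and 11.15 in the intrakidney tumors, against 10.94, 11.10 and 11.06 in the subcutaneous tumors. The groups overlapped and the log2 difference was 0.06, with a 95% interval from -0.11 to 0.23 and an adjusted p of 0.904. The change of Plau exceeded that of Plat by 0.37 on the log2 scale, and the ratio of both within a tumor did not overlap between the groups (exact two-sided permutation p = 0.1). This ratio was 1 of 4 that were chosen after the values were seen, and all 4 had an adjusted p of 0.1, so none could pass. How often ratios of other gene pairs separate the groups was not counted.

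Serpinb2 encodes plasminogen activator inhibitor type 2, a serpin of macrophages and keratinocytes that inhibits urokinase and stays largely inside the cell. It measured 8.22, 6.58 and 7.48 in intrakidney tumors 1, 2 and 3, against 5.46, 5.82 and 5.71 in the subcutaneous tumors. All 3 intrakidney tumors were higher, but they spread over 1.64 log2 units, where the subcutaneous tumors spread over 0.36. The log2 difference was 1.76 ± 0.36 (SE), or 3.39-fold, and the adjusted p was 0.170 with limma. Serpinb2 was among the dim genes (mean value below percentile 40), and the files give no detection call, so this fold rests on subcutaneous values that may lie at background. Intrakidney tumor 2 carried the lowest value: without it the difference was 2.18 with an adjusted p of 0.0343. Without intrakidney tumors 2 and 3, which had the highest means over the 12 tubule genes, the difference was 2.55 and rested on 1 intrakidney tumor. With array weights the difference was 1.63 with an adjusted p of 0.0156. The difference was 1.36 without intrakidney tumor 1, the highest. The change of Serpinb2 exceeded that of its target Plau by 1.33 on the log2 scale, and the ratio did not overlap between the groups (exact two-sided permutation p = 0.1). That ratio too was chosen after the values were seen and could not pass.

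**Figure D2:**
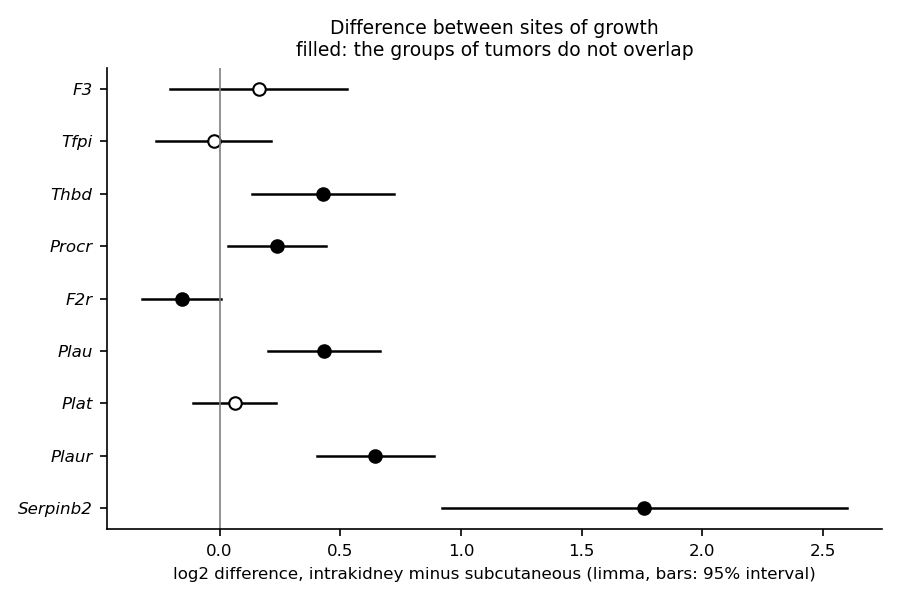
Log2 difference between intrakidney and subcutaneous tumors (horizontal axis) for each of the 9 genes, with the 95% interval of the limma fit for that gene alone. The intervals of Serpinb2, Plaur, Plau, Thbd and Procr lie above 0, and those of F3, Tfpi, Plat and F2r include it.

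The genes for the start of clotting and for its first block had groups that overlapped. F3, the tissue factor gene, measured 6.49, 6.37 and 6.97 in intrakidney tumors 1, 2 and 3, against 6.60, 6.33 and 6.41 in the subcutaneous tumors. Only intrakidney tumor 3 lay above the subcutaneous range. This was a log2 difference of 0.16, with a 95% interval from -0.21 to 0.53 and an adjusted p of 0.873, and it was -0.02 without intrakidney tumor 3. With array weights, which among intrakidney tumors were highest for tumor 3, it was 0.43 (adjusted p = 0.128), at an unadjusted p of 0.0162. Tfpi, which encodes the inhibitor of the tissue factor complex, measured 10.08, 9.78 and 9.93 in the intrakidney tumors, against 10.09, 9.89 and 9.88 in the subcutaneous tumors. Its log2 difference was -0.02, with a 95% interval from -0.26 to 0.21, and its sign turned without intrakidney tumor 2 (0.05) or subcutaneous tumor 1 (0.04).

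Both genes of the protein C pathway among the members lay higher in every intrakidney tumor. Thbd encodes thrombomodulin, the endothelial receptor that turns thrombin from clotting to activating protein C. It measured 7.60, 7.26 and 7.76 in intrakidney tumors 1, 2 and 3, against 7.07, 7.10 and 7.17 in the subcutaneous tumors. Intrakidney tumor 2 lay only 0.09 above the highest subcutaneous tumor. The log2 difference was 0.43 ± 0.13 (SE), or 1.35-fold, with an adjusted p of 0.383, and 0.0398 with array weights. It was 0.32 to 0.57 when any 1 tumor was left out. The change of Thbd exceeded that of F3 by 0.27 and that of Tfpi by 0.45 on the log2 scale, and neither ratio overlapped between the groups (exact two-sided permutation p = 0.1 each). Both ratios were chosen after the values were seen, and neither could pass.

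Procr encodes the endothelial protein C receptor, which presents protein C to thrombin bound by thrombomodulin. It measured 9.25, 9.13 and 8.98 in intrakidney tumors 1, 2 and 3, against 8.87, 8.94 and 8.84 in the subcutaneous tumors. The groups stood 0.04 apart, the narrowest separation among the 6 members without overlap. Its log2 difference was 0.24 ± 0.09 (SE), or 1.18-fold, with an adjusted p of 0.498. It ran from 0.12 with array weights to 0.37 without intrakidney tumors 2 and 3, and the unadjusted p stayed under 0.05 in 10 of the 15 other settings. It was above in those with array weights and without intrakidney tumor 1, intrakidney tumor 2, subcutaneous tumor 1 or subcutaneous tumor 3.

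F2r encodes the main thrombin receptor of many cell types, which thrombin switches on by cutting its outer end. It measured 10.75, 10.76 and 10.76 in intrakidney tumors 1, 2 and 3, against 10.96, 10.95 and 10.83 in the subcutaneous tumors. The intrakidney tumors spanned 0.01 and the subcutaneous tumors 0.14. Between the groups F2r differed by -0.16 ± 0.07 (SE), with a 95% interval from -0.32 to 0.0067 and an adjusted p of 0.619. Of the other protease-activated receptor genes, 2 of 3 were measured and neither passed: F2rl2 differed by -0.31 and F2rl3 by -0.06 on the log2 scale.

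The members did not follow a single order over the intrakidney tumors. Intrakidney tumor 2 was the lowest of its group in 7 of the 9 members, against 27.8% of all genes. Intrakidney tumor 3 was the highest in 5 members (24.2% of all genes), intrakidney tumor 1 in 4 (35.0%) and intrakidney tumor 2 in 0 (40.8%). The SD was larger in intrakidney than in subcutaneous tumors for 7 of the 9 members and for 59.4% of all genes, and Plat and F2r were the exceptions among the members.

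**Figure D3:**
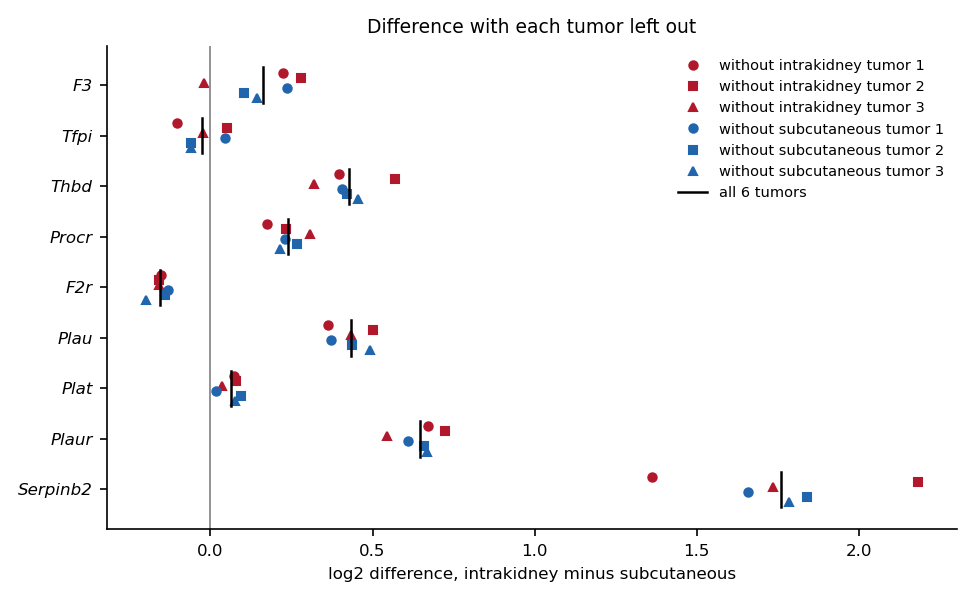
Log2 difference between intrakidney and subcutaneous tumors (horizontal axis) for each of the 9 genes with all 6 tumors (black line) and with each tumor left out (red for an intrakidney tumor, blue for a subcutaneous one). Serpinb2 moves between 1.36 and 2.18, and only F3 and Tfpi cross 0.

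By correlation over the 6 tumors, among 328 genes whose values spanned at least 1 log2 unit, the patterns most like that of Plaur were those of Cd163 (Pearson r = 0.997), a scavenger receptor gene of macrophages, Cebpd (0.995), a transcription factor gene of the acute phase, Hp (0.992), which encodes haptoglobin, Ifitm6 (0.989) and Csf2 (0.977), which encodes a myeloid growth factor. The patterns most like that of F2r were those of Erv3 (0.990), Mamdc2 (0.965), Antxr1 (0.940), Cxcr4 (0.937), a chemokine receptor gene, and Sprr2g (0.928). These correlations describe 6 points that fall into the 2 groups, and with so few points some of the 328 genes must match closely.

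Around the members, the list of plasma clotting factors and fibrinogen had 15 of 16 genes measured. Of these 1 rose past the adjusted threshold and 0 fell, 12 lay higher and 3 lower in intrakidney tumors, and the median log2 difference was 0.30. Of all 19938 genes 9564 lay higher and 10374 lower. In 4 of the 15 the groups did not overlap, all higher, as in 8.41% of all genes. F13a1, the subunit of factor XIII that cross-links fibrin and is made by macrophages, rose by 1.14 ± 0.14 (SE) on the log2 scale (adjusted p = 0.0300 with limma). It measured 10.55, 10.67 and 10.79 in intrakidney tumors 1, 2 and 3, against 9.24, 9.73 and 9.63 in the subcutaneous tumors, and the call was lost without any 1 of the 6 tumors, with an adjusted p of 0.0636 to 0.1 and a difference of 0.99 to 1.24. The genes of factors X, V and VII, which act with tissue factor or just after it, did not overlap between the groups either: F10 differed by 0.80 (adjusted p = 0.139), F5 by 0.49 (adjusted p = 0.252) and F7 by 0.30 (adjusted p = 0.352).

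Another 4 genes, expressed chiefly in liver, stood far higher in intrakidney tumor 3 than in any other tumor. Fgg, a fibrinogen chain gene, measured 4.62, 4.73 and 8.70 in intrakidney tumors 1, 2 and 3, against 4.63 to 4.68 in the subcutaneous tumors, and Fgb measured 5.56, 6.01 and 8.77, against 5.42 to 5.99. F2, the prothrombin gene, measured 6.22, 6.67 and 8.08, against 6.14 to 6.55, and Plg, the plasminogen gene, 5.70, 6.07 and 7.97, against 5.71 to 6.20. In each of these genes intrakidney tumor 3 stood apart from the other 5 tumors, as it did in the hepatocyte genes, whose part in these values was not tested. F13a1, F10, F7 and F5 lay above the subcutaneous range in all 3 intrakidney tumors, and for them too the part of the hepatocyte genes was not tested. Fga, the remaining fibrinogen chain gene, had 2 rows, and the row used, that with the higher mean, did not show such a rise. In that row Fga measured 6.02, 6.21 and 6.63 in intrakidney tumors 1, 2 and 3, against 6.06 to 6.34 in the subcutaneous tumors, a log2 difference of 0.09. The values of the other row are not given here.

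**Figure D4:**
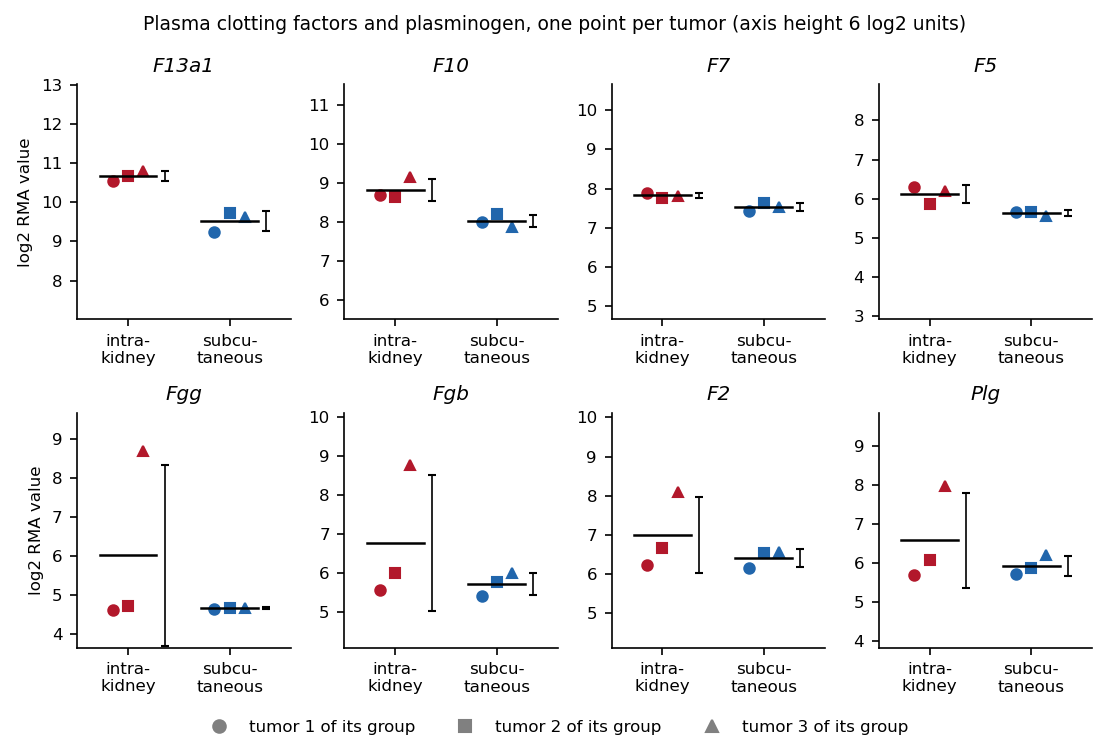
Log2 RMA value (vertical axis) of 7 plasma clotting factor genes and of Plg in each intrakidney tumor (red) and subcutaneous tumor (blue), with group means and SD of 3 tumors. F13a1, F10, F7 and F5 are higher in all 3 intrakidney tumors, and Fgg, Fgb, F2 and Plg are far higher only in intrakidney tumor 3.

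The other lists of the pathway held no gene past the threshold and none at an unadjusted p of 0.05. All 8 other anticoagulant genes were measured, 5 higher and 3 lower, with a median log2 difference of 0.06. Serpinc1, the antithrombin gene, differed by 0.51 and was highest in intrakidney tumor 3 (6.94, against 5.65 to 5.71 in the subcutaneous tumors). Pros1, which encodes protein S, the helper of activated protein C, differed by 0.02. Of 14 other genes of the plasminogen system 11 were measured, 7 higher and 4 lower, with a median of 0.03, and the others were not analysed here. Anxa2 and S100a10, whose proteins together hold plasminogen at the cell surface, differed by 0.06 and 0.03. Lrp1, the endocytic receptor that clears complexes of urokinase and its inhibitors, differed by -0.16 (adjusted p = 0.700), and Vtn and Plg by 1.08 and 0.66, with their highest values in intrakidney tumor 3.

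Marker genes of cells known to make these proteins also differed between the groups, and their part in the members' values was not tested. The mean over 10 endothelial genes was 8.29 to 8.32 in intrakidney and 7.94 to 8.09 in subcutaneous tumors, with 9 of 10 genes higher, 1 of them past the threshold (Emcn). In 8 of the 10 the groups did not overlap, all higher in intrakidney tumors, as in 8.41% of all genes. At an unadjusted p under 0.05 in the limma fit 6 were higher, as were 4.72% of all genes. Their log2 differences ran from -0.01 (Esam) to 0.72 (Emcn), and that of Pecam1, counted among those higher, was 0.0088. The mean over 10 macrophage genes was 9.57 to 9.73 in intrakidney and 9.25 to 9.31 in subcutaneous tumors, with 7 of 10 higher. Vsig4, a complement receptor gene of resident macrophages, rose by 1.37 and was the 1 macrophage gene past the threshold. Cd163 differed by 1.04, Cd14 by 0.44, Mrc1 by 0.39, Itgam by 0.19, Mertk by 0.12 and Fcgr1 by 0.08. The remaining 3 genes, Csf1r, Cd68 and Adgre1, differed by -0.14, -0.06 and -0.05.

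The mean over 10 neutrophil genes was 6.29 to 6.79 in intrakidney and 6.06 to 6.23 in subcutaneous tumors (7 of 10 higher), and that over 7 mesothelial genes 6.33 to 6.58 and 6.11 to 6.28 (6 of 7 higher). Over 8 adipocyte genes it was 7.51 to 7.67 and 6.53 to 6.69 (8 of 8 higher), and 3 genes rose past the threshold (Car3, Fabp4 and Cidec). Over 10 fibroblast genes it was 8.69 to 9.37 in intrakidney and 9.41 to 9.55 in subcutaneous tumors, with 8 of 10 lower, and Postn fell past the threshold. The mean over 9 platelet genes was 6.63 to 6.88 in intrakidney and 6.77 to 6.81 in subcutaneous tumors, and that over 7 keratinocyte genes, another cell type that makes Serpinb2, 5.73 to 5.99 and 5.81 to 5.99, so both of these lists overlapped.

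**Figure D5:**
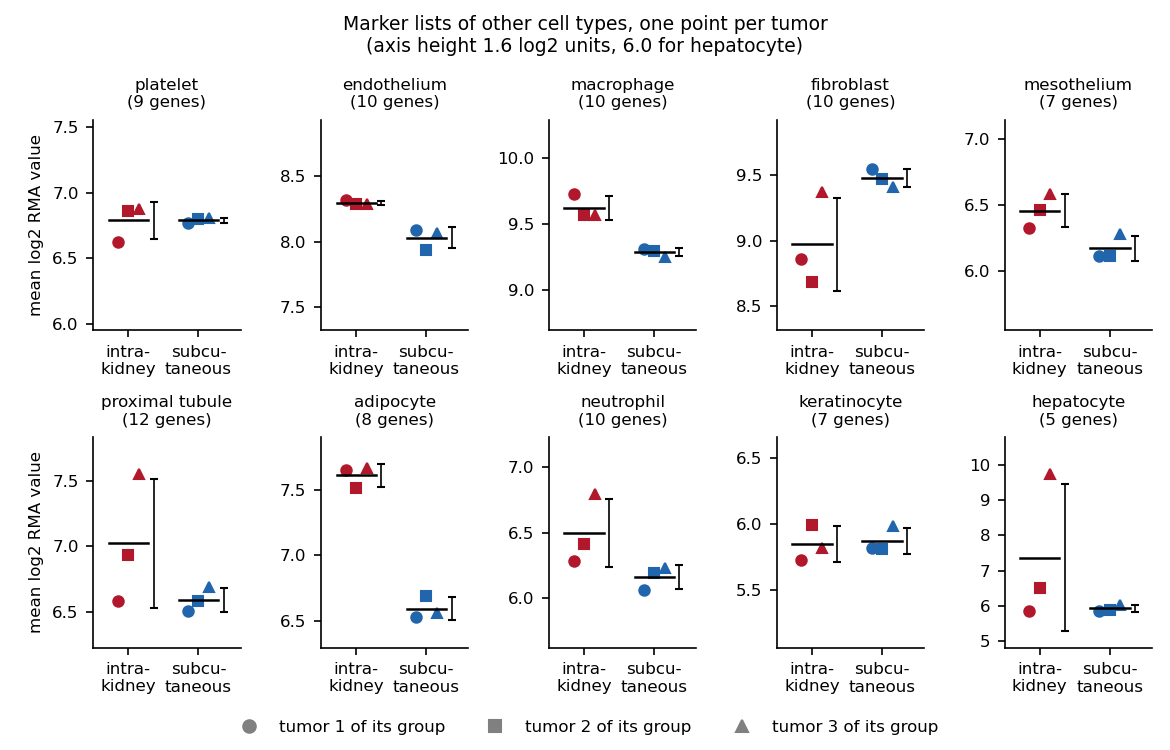
Mean log2 RMA value over the measured genes of each marker list (vertical axis) in each intrakidney tumor (red) and subcutaneous tumor (blue), with group means and SD of 3 tumors. Endothelium, macrophage, mesothelium, adipocyte and neutrophil lists are higher in every intrakidney tumor, the fibroblast list is lower, and the hepatocyte and tubule lists are highest in intrakidney tumor 3.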

How the data were processed

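Total RNA of 3 intrakidney and 3 subcutaneous Renca tumors was hybridised to Affymetrix mouse gene arrays. Per the submitters' processing notes, the authors used affy and RMA to make the deposited log2 expression values. The log2 scale was read from the values (2.31 to 15.07), and versions, settings, whether all arrays were normalized together and the genome build are not given in the sources used here. RMA compresses differences of dim genes. Array medians were 7.08 to 7.11. Having 3 arrays a group limits precision.

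Of 35512 rows, 21789 were paired with exactly 1 gene, 1621 with several and 12102 were not named here. For each gene the row with the highest mean over 6 arrays was taken (19938 genes); every member had 1 row. The comparison used lmFit and eBayes of limma 3.58.1 (R 4.3.3), two-sided, adjusted by Benjamini-Hochberg over all genes; SE and 95% intervals are those of the moderated fit. The fit was tested on simulated data. Ratios of 2 members were compared by exact permutation. The members, gene lists, tests and alternatives were chosen with earlier results of these data known. Named genes were the members, pathway genes past the threshold or lowest in p, marker genes lowest in p and the 5 genes most correlated with 2 members; others were picked after their values were seen. Alternatives were median centring, quantile normalization, a filter that drops dim genes (mean value below percentile 40), testing every row, averaging rows, a trend and robust prior, array weights, a replicate block, a stricter threshold, and leaving out each tumor or intrakidney tumors 2 and 3.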

Additional observations from a re-analysis of the deposited data

How the results depend on the processing

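The 5 members at an unadjusted p of 0.05 were 4 to 6 in the other settings, and the 6 without overlap were 5 to 7, while the shares of all genes ran from 4.9% to 22.4% (array weights) and from 12.6% to 62.4% (without intrakidney tumors 2 and 3), so a like count of members does not mean the same in each setting. Plaur, Plau and Thbd kept their sign and an unadjusted p under 0.05 in all 15 other settings, and Serpinb2 in the 14 that tested it, since F3 and Serpinb2 were among the dim genes left out. Members past the adjusted threshold numbered 0 as reported, 1 without dim genes (where fewer genes were tested), 1 with a trend and robust prior, 4 with array weights and 1 without intrakidney tumors 2 and 3, and 0 to 1 with each tumor left out; why they differ was otherwise not tested. Over all genes the count was 46 as reported, 101 without dim genes, 0 when every row was tested (2206 at an unadjusted p of 0.05), 138 with a trend and robust prior, 624 with array weights, 30 without intrakidney tumors 2 and 3, 5 at an adjusted p of 0.01, and 2 to 33 with each tumor left out. With the replicate number as a block it was 0 (1825 at an unadjusted p of 0.05), and 0 members passed, with Plaur at an adjusted p of 0.160. The labels number the tumors within each group and name no pairing. Same-numbered tumors correlated by 0.374, -0.159 and 0.104 in their deviations from the group means, and different-numbered ones by -0.441 to 0.429. With 3 tumors a group these correlations cannot decide whether tumors were paired. F13a1 no longer passed with the block, with every row tested (adjusted p = 0.0660 and 0.151) or without intrakidney tumors 2 and 3 (0.1755). Reversed signs were those of Tfpi (0.051 without intrakidney tumor 2, 0.044 without subcutaneous tumor 1, 0.1298 without intrakidney tumors 2 and 3) and F3 (-0.0187 without intrakidney tumor 3), both with intervals that include 0; the cause was not tested. With each tumor left out in turn, F3 lay between -0.0187 and 0.2795 and Tfpi between -0.1022 and 0.051.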
